A study of Mus musculus with 12 samples.

Results

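The transcripts of the 3 clock activators *Arntl* (also called *Bmal1*), *Clock* and *Npas2* were followed in the liver, in wild-type (WT) animals and in *Rev-erbα*-/- animals. They were taken by their symbols from a table of 38926 gene symbols, and all 3 were among the 14488 genes that passed the filter on low counts. RNA-seq had been carried out on 12 livers of male mice aged 12 weeks on a 129Ola/C57BL6 background, with 3 mice in each of 4 groups: WT at ZT8, *Rev-erbα*-/- at ZT8, WT at ZT20 and *Rev-erbα*-/- at ZT20. ZT is the time in hours after lights on, so that ZT8 lies in the light phase and ZT20 in the dark phase of a 12 h to 12 h cycle. The knockout removes *Rev-erbα* (*Nr1d1*) in the whole animal and not in liver alone, and the animals came from heterozygous breeding pairs. Both genotypes were otherwise untreated. The comparison addresses how the activator arm of the clock is expressed when this repressor is missing, at a time when it is normally abundant and at a time when it is scarce.

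ARNTL is a transcription factor of the bHLH-PAS family that binds DNA only as a pair with a second bHLH-PAS protein, which in liver can be CLOCK or its paralogue NPAS2. The pair binds E-box motifs and switches on the *Per* and *Cry* genes, whose proteins inhibit it, as well as *Nr1d1* and *Nr1d2*, which encode the repressors REV-ERBα and REV-ERBβ. The REV-ERB proteins and the activating ROR receptors compete for the same motif, the RORE, and *Arntl* is the best known gene under its control.

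RefSeq promoter windows of GRCm38.p6, the assembly behind mm10, held the RORE core TAGGTCA in *Arntl* and in neither of its partners. Each window is 300 bases long, most of it upstream of the annotated start site, and the start base is counted as 0. The windows below are shown because the REV-ERB and ROR proteins are known to bind such letters. Capitals mark matches to TAGGTNA, a pattern chosen after the *Arntl* sequence had been read. They are *Arntl* at chr7:113207261-113207560 (plus strand), *Clock* at chr5:76304743-76305042 (minus strand) and *Npas2* at chr1:39194022-39194321 (plus strand).
Arntl: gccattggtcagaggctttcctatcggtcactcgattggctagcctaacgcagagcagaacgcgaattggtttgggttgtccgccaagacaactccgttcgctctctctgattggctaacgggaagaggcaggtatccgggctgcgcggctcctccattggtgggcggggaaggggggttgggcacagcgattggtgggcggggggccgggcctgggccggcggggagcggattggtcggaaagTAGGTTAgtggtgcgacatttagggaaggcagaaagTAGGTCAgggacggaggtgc
Clock: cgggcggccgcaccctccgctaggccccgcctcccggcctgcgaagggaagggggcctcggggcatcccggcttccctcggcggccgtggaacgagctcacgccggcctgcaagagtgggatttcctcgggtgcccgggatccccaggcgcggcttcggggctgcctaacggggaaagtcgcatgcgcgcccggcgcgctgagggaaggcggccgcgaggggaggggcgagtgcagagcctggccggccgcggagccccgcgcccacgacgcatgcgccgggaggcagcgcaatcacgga
Npas2: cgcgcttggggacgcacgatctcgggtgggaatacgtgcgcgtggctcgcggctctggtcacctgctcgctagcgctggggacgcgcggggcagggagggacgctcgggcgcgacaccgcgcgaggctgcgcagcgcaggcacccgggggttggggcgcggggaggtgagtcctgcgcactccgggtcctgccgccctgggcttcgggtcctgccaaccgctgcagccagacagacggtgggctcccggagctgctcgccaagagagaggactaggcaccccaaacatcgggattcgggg
The *Arntl* window held TAGGTTA from position -6 to 0 and TAGGTCA from position 30 to 36, both on the strand of the gene. A second RefSeq start of *Arntl* lies upstream, and its window (chr7:113207215-113207514) overlaps this one and holds the TAGGTTA copy from position 40 to 46. Searched on both strands, TAGGTNA occurred at least once in 8.29% of all 32851 promoter windows and at least 2 times in 0.557% of them, while TAGGTCA occurred in 2.61%. The shorter core AGGTCA, which overlaps TAGGTCA, occurred in 16.3% of all windows. It was in the *Arntl* window and, on the minus strand from position -119 to -114, in the third of 3 *Clock* windows (chr5:76303453-76303752), but not in the other *Clock* windows or in that of *Npas2*. The E-box CACGTG, found in 7.15% of all windows, was in none of the 6 windows of the 3 genes. The printed *Clock* and *Npas2* windows had a GC content of 76.3% and 72.7%, and that of *Arntl* 61.7%, against a median of 52.7% over all windows.

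Between 17641809 and 26060192 reads per library were assigned to genes, and levels are given as CPM, the usual count unit scaled to library size, after TMM normalisation. The targeted gene *Nr1d1* had 128.7, 96.15 and 75.34 CPM in WT and 62.99, 71.89 and 80.55 CPM in *Rev-erbα*-/- livers at ZT8, and 2.28, 1.86 and 2.15 CPM in WT and 3.57, 2.96 and 2.09 CPM in *Rev-erbα*-/- livers at ZT20. The genotypes overlapped at both times (edgeR quasi-likelihood test, adjusted p = 0.143 at ZT8). The count pools all exons of the symbol, deleted or kept, so it does not check the genotype labels. Of the *Nr1d1* exon bases, 263 (8.547%) are shared with *Thra* on the opposite strand. By quantitative PCR of liver RNA, the study reported no *Rev-erbα* mRNA in the knockout. Summed hepatocyte markers were between 63290 and 110600 CPM in each library. None of the 8 was called between genotypes by edgeR (0 of 8 at either time, with 5 at ZT8 and 0 at ZT20 at an unadjusted p under 0.05, and 4 and 0 by DESeq2). Of all genes, 8.45% were called at ZT8 and 3.63% at ZT20. Between ZT8 and ZT20 in WT liver, 4 of the 8 were higher and 2 lower at ZT20, where 27.7% of all genes were called. The 8 summed to 63290 to 84520 CPM at ZT8 and 101100 to 110600 CPM at ZT20 in WT liver. In *Rev-erbα*-/- liver 1 was higher and 1 lower, where 17.5% of all genes were called. Of 6 Kupffer cell markers, 3 were lower at ZT20 in WT liver, and 2 had a negative interaction, against 27.7% and 5.88% of all genes called. The alternatives given under the processing include a fit that leaves out 2 libraries described further below. Over the alternatives, 1 to 6 of 8 hepatocyte markers were called between times in WT liver. Of 6 Kupffer cell markers, 0 to 4 were called in both tests. Kupffer cell markers summed to 237.2 to 434.1 CPM over the libraries, endothelial markers to 265.8 to 327.9 CPM and stellate cell markers to 217.5 to 304.3 CPM. Cholangiocyte markers summed to 37.9 to 94.7 CPM, lymphocyte markers to at most 1.92 CPM and neutrophil markers to at most 6.75 CPM, with *Ly6g* at 0. Of 5 cholangiocyte markers, 1 was called higher in *Rev-erbα*-/- liver at ZT8, and 2 (WT) and 1 (*Rev-erbα*-/-) were higher at ZT20 than at ZT8. Of 6 stellate cell markers, 1 was lower at ZT20 in WT liver, 1 higher in *Rev-erbα*-/- liver, and 1 had a negative interaction. Each of these cholangiocyte and stellate cell counts was 0 in some alternative. Of 2 neutrophil markers tested, 0 were called by edgeR between genotypes at ZT20, but 2 had an unadjusted p under 0.05 and DESeq2 called 2. Between genotypes, 0 of 6 Kupffer cell markers were called by edgeR in the main fit. Over the alternatives, 0 to 5 were called at ZT8 and 0 to 3 at ZT20, and 0 to 3 between times in *Rev-erbα*-/- liver. At ZT8 and ZT20, 4 and 3 had an unadjusted p under 0.05, and DESeq2 called 2 and 2. Shares of all genes called are those above. They are edgeR shares and do not apply to counts at an unadjusted p or by DESeq2, for which no share is given. The 2 libraries left out above, WT replicates 2 and 3 at ZT8, stood apart, with 4972 and 6489 CPM of the acute-phase gene *Saa1* against 60.8 CPM in replicate 1. All 4 acute-phase genes were called lower in *Rev-erbα*-/- livers at ZT8, against 8.45% of all genes called. They summed to 87.2 to 13440 CPM in WT and 45.9 to 62.0 CPM in *Rev-erbα*-/- livers. The WT group includes the 2 libraries, so that call does not separate genotype from them. Alignments set aside in counting as not unique amounted to 1.76 to 3.28 per assigned read in WT livers at ZT8 and to 1.24 to 2.72 in the other groups. A read with several alignments can enter this number more than once, so it is no count of reads. Whether these differences take part in the results was not tested, except that the ZT8 comparisons are also given without the 2 libraries high in *Saa1*.

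At ZT8, all 3 activators were higher in *Rev-erbα*-/- than in WT liver, whereas at ZT20 none of them differed. *Arntl*, the partner shared by all activator pairs (mm10 chr7:113207465-113314126, plus strand), was close to the detection limit in WT liver at ZT8, with 20, 9 and 14 reads, or 0.796, 0.448 and 0.712 CPM. In *Rev-erbα*-/- livers at the same time it reached 24.25, 25.72 and 22.67 CPM. The lowest knockout liver lay far above the highest WT liver, and the fold change was 36.3 (log2 fold change 5.18 ± 0.13 SE, edgeR quasi-likelihood test, adjusted p = 2.23e-12). It was the gene with the smallest p of all 14488 tested in this comparison. At ZT20, *Arntl* was at 44.52, 45.25 and 43.03 CPM in WT and at 45.12, 44.8 and 41.08 CPM in *Rev-erbα*-/- livers. These ranges overlapped, and the log2 difference was -0.02 with a 95% interval from -0.20 to 0.16 (edgeR adjusted p = 0.956). Because whole liver was measured, more transcript per cell and more cells with the transcript cannot be told apart here or in what follows.

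*Clock* (chr5:76209868-76304792, minus strand), which encodes the main partner of ARNTL, was expressed in every library. It was at 32.27, 26.65 and 29.79 CPM in WT livers at ZT8 and at 81.27, 71.94 and 69.05 CPM in *Rev-erbα*-/- livers. The groups did not overlap, and *Clock* was 2.50-fold higher in the knockout (log2 fold change 1.32 ± 0.09 SE, edgeR adjusted p = 1.87e-07). At ZT20, WT livers had 71.13, 75.28 and 73.32 CPM and *Rev-erbα*-/- livers 77.23, 68.84 and 67.44 CPM. Here the knockout values enclosed the WT values, and the log2 difference was -0.04 with a 95% interval from -0.22 to 0.14 (edgeR adjusted p = 0.892).

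*Npas2* (chr1:39193731-39363236, plus strand), the paralogue of *Clock*, was the least abundant of the 3. In WT livers at ZT8, only 2, 2 and 1 reads were assigned to it (0.0796, 0.0996 and 0.0508 CPM), which is under the floor of 3 reads used for detection (0.117 to 0.167 CPM, depending on the library). In *Rev-erbα*-/- livers at ZT8 it had 17, 11 and 10 reads (0.883, 0.611 and 0.490 CPM), above the floor in every liver. Summed over the livers, 38 reads against 5 gave a ratio of 8.55 per sequenced read, with an exact 95% binomial interval from 3.36 to 27.8 that covers counting error only. The fitted log2 fold change of 3.01 ± 0.56 SE (edgeR adjusted p = 0.00363) depends on the prior count that edgeR adds to such low values and is no bound. Without the 2 WT libraries high in *Saa1*, the call for *Npas2* was lost (2.96, edgeR adjusted p = 0.108), while *Arntl* (4.91, adjusted p = 3.64e-09) and *Clock* (1.19, adjusted p = 9.76e-05) stayed above WT. In that fit WT at ZT8 rests on 1 liver, which is assumed to vary like the other groups. At ZT20, *Npas2* was at 6.84, 6.55 and 4.03 CPM in WT and at 7.09, 6.86 and 4.76 CPM in *Rev-erbα*-/- livers. Replicate 3 was the lowest in each genotype, the groups overlapped, and the log2 difference was 0.11 with an interval from -0.34 to 0.56 (edgeR adjusted p = 0.89), which is wider than that of the other activators.

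**Figure D1:**
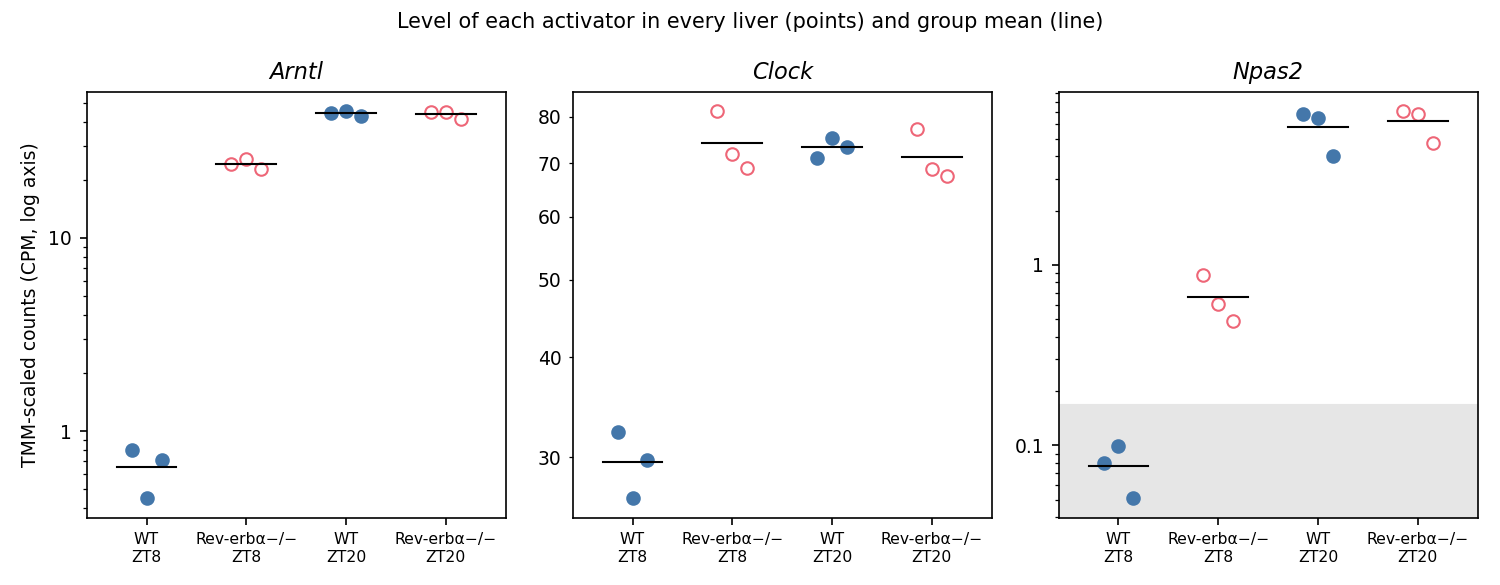
Level of *Arntl*, *Clock* and *Npas2* in each of the 12 livers, as TMM-scaled CPM on a log axis that differs between panels. Points are livers (filled WT, open *Rev-erbα*-/-), lines are group means of 3 livers, and the grey band of the *Npas2* panel is the level of up to 3 reads in the shallowest library. For every gene the 3 WT livers at ZT8 lie lowest, and at ZT20 the genotypes overlap.

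Thus 3 of 3 activators were called at ZT8, where 8.45% of all tested genes were called, and 0 of 3 at ZT20, where 3.63% were called. The 3 genes were chosen with earlier results of these data known, so these counts are descriptions. At ZT20, 0 of 3 also had an unadjusted p under 0.05 in edgeR, and 0 of 3 were called by DESeq2. With 3 against 3 livers, an exact permutation test of a single gene cannot go below p = 0.1 (2-sided), and each of the 3 reached this value at ZT8. The genotype effect differed between the times for all 3, in a test where 5.88% of all genes were called. The interaction on the log2 scale was 5.20 ± 0.16 SE for *Arntl* (edgeR adjusted p = 3.93e-11), 1.36 ± 0.12 SE for *Clock* (adjusted p = 5.04e-06) and 2.90 ± 0.61 SE for *Npas2* (adjusted p = 0.00972). Without the 2 libraries high in *Saa1*, that of *Npas2* was 2.85 and was no longer called (adjusted p = 0.126).

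In WT liver, all 3 activators rose from ZT8 to ZT20, a comparison in which 27.7% of all genes were called. The hepatocyte markers differed between these groups as well, as given above, and their part in the rise was not tested. *Arntl* rose 66.4-fold (log2 fold change 6.05 ± 0.13 SE, edgeR adjusted p = 1.61e-13), again with the smallest p of all genes, and *Clock* rose 2.47-fold (1.31 ± 0.09 SE, adjusted p = 5.08e-08). For *Npas2*, 385 summed reads at ZT20 against 5 at ZT8 gave a ratio of 75.2 (exact 95% binomial interval 31.9 to 233), and the edgeR adjusted p was 3.67e-08. In *Rev-erbα*-/- liver, 2 of 3 activators rose, against 17.5% of all genes called, and they did so by unlike amounts. *Npas2* still rose 9.40-fold (3.23 ± 0.28 SE, edgeR adjusted p = 3.15e-06) and *Arntl* 1.80-fold (0.85 ± 0.09 SE, adjusted p = 1.32e-05). *Clock* had a log2 difference of -0.06 between the times, with a 95% interval from -0.24 to 0.12 (adjusted p = 0.695).

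The order of the 4 groups was then set out for each gene. For *Arntl*, WT at ZT8 was lowest (mean 0.652 ± 0.181 CPM, SD, n = 3), *Rev-erbα*-/- at ZT8 followed (24.2 ± 1.53 CPM), and both genotypes at ZT20 shared the top (43.7 ± 2.25 CPM in *Rev-erbα*-/- and 44.3 ± 1.13 CPM in WT). *Rev-erbα*-/- liver at ZT8 held 54.7% of the *Arntl* level of WT liver at ZT20, and this difference was called (log2 -0.87, edgeR adjusted p = 6.57e-06, against 20.5% of all genes called). For *Clock*, 3 groups did not differ beyond their spread, with 71.2 ± 5.29 CPM in *Rev-erbα*-/- at ZT20, 73.2 ± 2.08 CPM in WT at ZT20 and 74.1 ± 6.39 CPM in *Rev-erbα*-/- at ZT8, above 29.6 ± 2.82 CPM in WT at ZT8. *Rev-erbα*-/- liver at ZT8 had 101.2% of the *Clock* level of WT liver at ZT20 (log2 0.02, interval -0.16 to 0.20, adjusted p = 0.92). For *Npas2*, the order was WT at ZT8 (0.0767 ± 0.0245 CPM), *Rev-erbα*-/- at ZT8 (0.661 ± 0.201 CPM), WT at ZT20 (5.80 ± 1.55 CPM) and *Rev-erbα*-/- at ZT20 (6.24 ± 1.29 CPM), and only the last pair of neighbours did not differ. At ZT8, *Npas2* of *Rev-erbα*-/- liver stood at 11.5% of the WT level of ZT20 (log2 -3.13, adjusted p = 2.27e-06). All 3 genes were higher in *Rev-erbα*-/- liver at ZT20 than in WT liver at ZT8 (edgeR adjusted p of 1.67e-13, 8.81e-08 and 3.61e-08 for *Arntl*, *Clock* and *Npas2*), where 25.4% of all genes were called. These contrasts share groups, so they are not separate evidence.

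**Figure D2:**
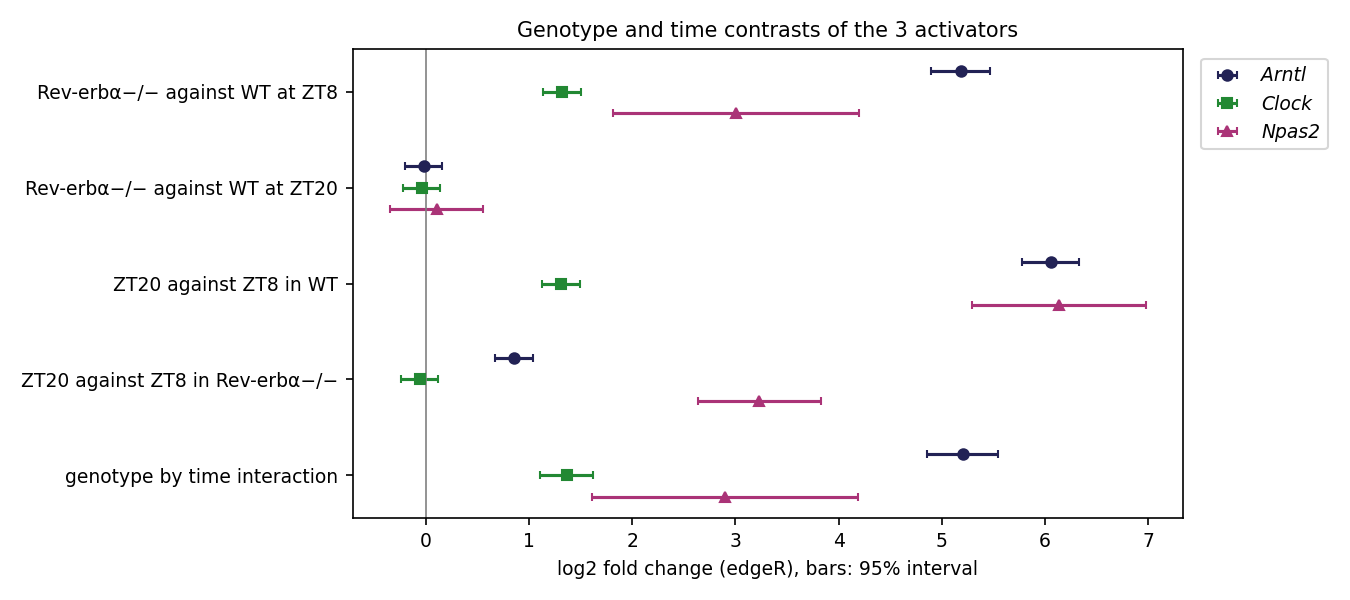
Log2 fold change of *Arntl* (circles), *Clock* (squares) and *Npas2* (triangles) in 5 contrasts, from one edgeR fit over 12 livers, with bars for the 95% interval. At ZT20 all 3 genotype intervals cover 0, and in *Rev-erbα*-/- liver the change from ZT8 to ZT20 is 0.85 for *Arntl*, -0.06 for *Clock* and 3.23 for *Npas2*.

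The balance between the activators within a library needs no scaling between libraries, and it was computed from reads per kilobase of annotated exon. The *Arntl* to *Clock* ratio was 0.0398 ± 0.00788 (SD, n = 3) in WT liver at ZT8 and 0.599 ± 0.0539 in *Rev-erbα*-/- liver at ZT8. At ZT20 it was 1.10 ± 0.0360 in WT and 1.12 ± 0.0614 in *Rev-erbα*-/- liver. The ratio was thus 15.2-fold higher in the knockout at ZT8 and rose a further 1.88-fold to ZT20, with no overlap in either comparison (exact permutation p = 0.1, the smallest possible). The *Npas2* to *Clock* ratio, which sets the 2 partners of ARNTL against each other, was 0.00756 ± 0.00294 in WT and 0.0253 ± 0.00546 in *Rev-erbα*-/- liver at ZT8, and 0.227 ± 0.0620 and 0.250 ± 0.0431 at ZT20. It did not overlap between genotypes at ZT8 (3.46-fold, exact permutation p = 0.1), but the WT values at ZT8 rest on 1 or 2 reads of *Npas2* each. In *Rev-erbα*-/- liver, it was 9.95-fold higher at ZT20 than at ZT8, again with no overlap.

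The *Npas2* to *Arntl* ratio, added after the values had been seen, was lower in *Rev-erbα*-/- liver at ZT8 than in either genotype at ZT20. Its values there were 0.0572, 0.0373 and 0.0339. WT livers had 0.157, 0.349 and 0.112 at ZT8 and 0.241, 0.227 and 0.147 at ZT20, and *Rev-erbα*-/- livers 0.247, 0.240 and 0.182 at ZT20. The ratio in *Rev-erbα*-/- liver was 5.30-fold higher at ZT20 than at ZT8, whereas in WT liver the times overlapped (exact permutation p = 0.1 and p = 0.9). The WT values at ZT8 rest on 2, 2 and 1 reads of *Npas2*, under the floor of detection, so the place of that group in the order is not firm, and its mean of 0.206 was 0.135 to 0.253 when single livers were left out.

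**Figure D3:**
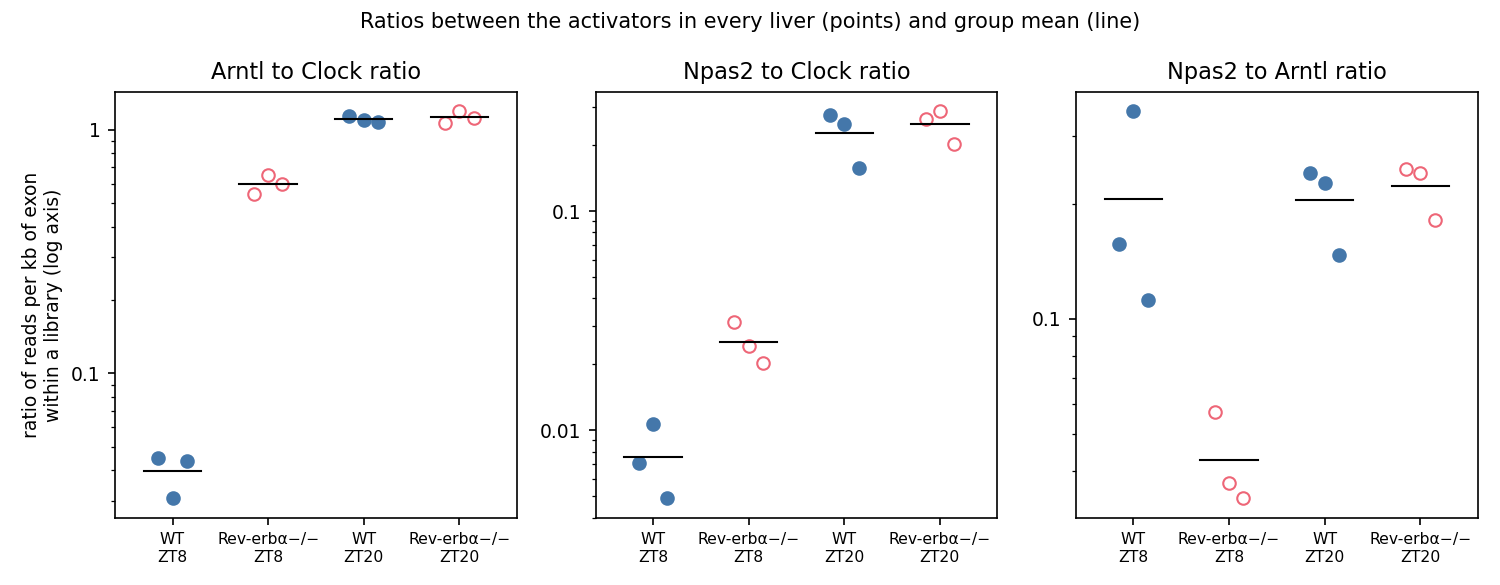
Ratios of reads per kilobase of exon between pairs of activators within each library, on log axes that differ between panels (filled WT, open *Rev-erbα*-/-, lines for means of 3 livers). The *Npas2* to *Arntl* ratio of *Rev-erbα*-/- livers at ZT8 lies between 0.0339 and 0.0572, below all livers of ZT20, and the WT values at ZT8 rest on 1 or 2 reads of *Npas2* each.

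Per kilobase of exon, *Npas2* had the lowest level of the 3 in each group, for example 1.21 ± 0.323 CPM per kb in WT liver at ZT20 against 5.34 ± 0.151 for *Clock* and 5.88 ± 0.150 for *Arntl*. This held with the union of exons (4791 bases for *Npas2*, 13727 for *Clock* and 7523 for *Arntl*), the longest transcript and the coding part as the length. At ZT8, *Clock* was above *Arntl* per kilobase in both genotypes by each of these lengths. At ZT20, the order of *Arntl* and *Clock* depended on the length, since per kilobase of coding sequence WT liver had 23.3 CPM of *Arntl* and 28.6 CPM of *Clock*. Of the *Arntl* exon bases, 33 (0.439%) are shared with *Gm45355* on the opposite strand, and the counting did not use strand. No exon bases of *Clock* or *Npas2* are shared with another annotated gene.

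The E-box genes are the targets of the activators. Of 16 known targets, all tested, 1 was higher and 1 lower in *Rev-erbα*-/- liver at ZT8, where 8.45% of all genes were called, so that the count is near that of genes at large. The median log2 difference was -0.20, against a median close to 0 over all genes. *Cry1*, an inhibitor of the activators that also carries RORE motifs, was at 6.50 ± 1.38 CPM in WT and 26.1 ± 1.43 CPM in the knockout (SD, n = 3, log2 2.00, edgeR adjusted p = 1.45e-07). *Wee1*, a kinase that restrains entry into mitosis, fell from 14.3 ± 0.741 to 5.68 ± 1.95 CPM (log2 -1.33, adjusted p = 0.000197). The other 14 were not called, although 9 of 16 had an unadjusted p under 0.05 and DESeq2 called 4. Among them, *Dbp*, a PAR bZIP factor and a classical output gene, was at 127 ± 6.36 CPM in WT and 111 ± 14.2 CPM in *Rev-erbα*-/- liver (adjusted p = 0.416), and *Gm129*, the older symbol for *Ciart*, at 33.0 ± 2.87 and 34.4 ± 3.65 CPM (adjusted p = 0.81). *Per1* was at 74.3 ± 10.2 and 46.1 ± 3.55 CPM (adjusted p = 0.159), and *Per2* at 64.1 ± 4.68 and 61.1 ± 11.3 CPM (adjusted p = 0.852). At ZT20, 1 of 16 was called, against 3.63% of all genes. It was *Nr1d2*, the gene of REV-ERBβ, with 12.4 ± 1.54 CPM in WT and 24.9 ± 9.15 CPM in *Rev-erbα*-/- liver (adjusted p = 0.0452). That call was lost in 14 of 19 alternatives, the omission of the libraries high in *Saa1* and the fit with the replicate number as a block (adjusted p = 0.0822) among them. From ZT8 to ZT20, 11 of 16 fell and 1 rose in WT liver, and 10 fell and 1 rose in *Rev-erbα*-/- liver, with medians of -1.36 and -1.23, where 27.7% and 17.5% of all genes were called. *Dbp* fell 53.0-fold in WT and 58.8-fold in *Rev-erbα*-/- liver (edgeR adjusted p = 2.13e-10 and 9.27e-10). The list was drawn up with earlier results of these livers known. It includes the targeted gene *Nr1d1*, whose count pools deleted and kept exons.

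Of 5 other RORE genes reported here, 4 were higher in *Rev-erbα*-/- liver at ZT8, against 8.45% of all genes called. This list too was chosen with earlier results of these livers known, and it was shortened after values had been seen. Its counts are therefore descriptions and no test of RORE genes. *Nfil3*, a bZIP repressor of D-box genes, was at 12.1 ± 0.733 CPM in WT and 59.5 ± 0.860 CPM in *Rev-erbα*-/- liver (log2 2.29 ± 0.07 SE, edgeR adjusted p = 3.75e-11). *Elovl3*, a fatty acid elongase, rose from 64.3 ± 14.6 to 260.1 ± 38.9 CPM (adjusted p = 5.66e-05), and *Insig2*, a brake on cholesterol synthesis, rose 2.99-fold from 66.8 ± 12.4 CPM (adjusted p = 3.95e-05). With *Cry1*, these were the 4 that rose. The fifth gene, *E2f8*, a cell cycle repressor, was at 7.77 ± 4.98 CPM in WT and 11.9 ± 0.952 CPM in *Rev-erbα*-/- liver (adjusted p = 0.501). It ranged from 2.07 to 11.29 CPM in WT and from 11.07 to 12.93 CPM in *Rev-erbα*-/- livers, so the groups overlapped. The fit without the 2 libraries high in *Saa1* leaves 1 WT liver at ZT8 and cannot settle whether *E2f8* differs. At ZT20, 0 of 5 were called by edgeR, with 2 at an unadjusted p under 0.05 and 0 by DESeq2. Of all genes 3.63% were called there by edgeR, so that the edgeR count is near that of genes at large. The interaction was called for the same 4 genes, as it was for the activators, against 5.88% of all genes. From ZT8 to ZT20, 4 of 5 rose in WT liver, where 27.7% of all genes were called. In *Rev-erbα*-/- liver, 3 rose and *Nfil3* fell (log2 -0.26, edgeR adjusted p = 0.0164), where 17.5% of all genes were called. At ZT20, *Nfil3* was at 56.6 ± 3.68 CPM in WT and at 49.7 ± 1.21 CPM in *Rev-erbα*-/- liver.

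Of 10 regulators that act at ROREs and are reported here, 9 were tested (not *Rorb*), and 1 was lower in *Rev-erbα*-/- liver at ZT8, where 8.45% of all genes were called. This was *Ppargc1a*, a coactivator of the ROR receptors (14.7 ± 1.54 CPM in WT and 9.04 ± 1.63 CPM in the knockout, edgeR adjusted p = 0.00525, but 0.198 without the libraries high in *Saa1*). *Rora*, the main ROR gene of liver, was at 76.5 CPM in WT and 70.6 CPM in *Rev-erbα*-/- liver at ZT8 (log2 -0.11, 95% interval -0.34 to 0.11), and rose to 120.8 and 115.8 CPM at ZT20. *Nr1d2* stood at 138.4 and 132.5 CPM at ZT8 (log2 -0.06, 95% interval -0.52 to 0.40). For the interaction, 0 of 9 were called by edgeR, against 5.88% of all genes, with 3 at an unadjusted p under 0.05, and DESeq2 called 2. The 9 include the targeted gene *Nr1d1*, whose count pools deleted and kept exons and does not describe a working regulator.

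**Figure D4:**
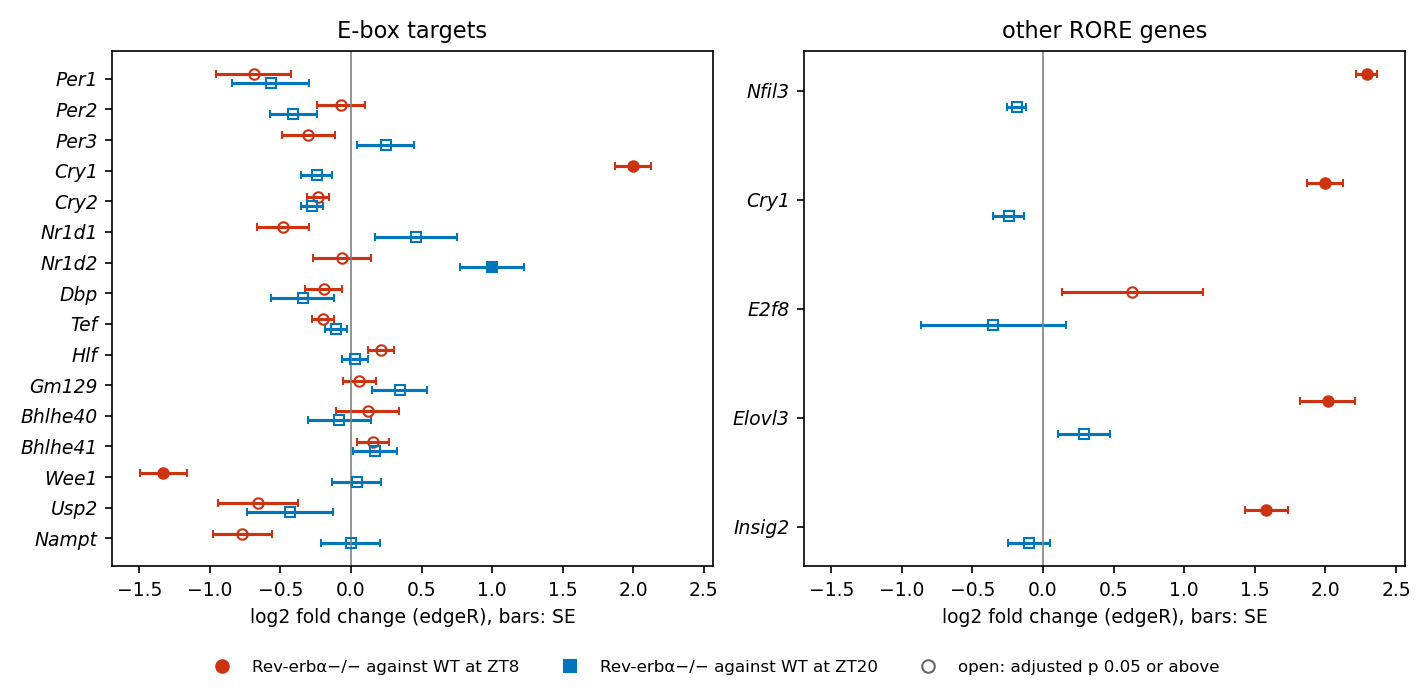
Log2 fold change of *Rev-erbα*-/- against WT liver at ZT8 (circles) and ZT20 (squares) for 16 E-box targets and 5 other RORE genes, with bars for the SE and filled symbols for adjusted p under 0.05. At ZT8, 4 of the 5 RORE genes lie at 1.58 or above, and 14 of the 16 E-box targets have open symbols.

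Of 13 relatives in the bHLH-PAS family, 5 were expressed enough to be tested. *Arntl2*, the paralogue of *Arntl*, was near the limit of detection, at 0.839 ± 0.295 CPM in WT and 0.399 ± 0.256 CPM in *Rev-erbα*-/- liver at ZT8, and at 0.0741 ± 0.0677 and 0.507 ± 0.276 CPM at ZT20. Unlike the 3 activators, it was lower at ZT20 than at ZT8 in WT liver (edgeR adjusted p = 0.00284). Its interaction had the opposite sign (log2 -3.69, adjusted p = 0.0317), but with WT at ZT20 at or under the floor of 3 reads this value depends on the prior count, and the call was lost in 8 of 18 alternatives. *Epas1*, the hypoxia factor HIF-2α, fell from 226.3 ± 6.65 to 158.3 ± 14.8 CPM in the knockout at ZT8 (adjusted p = 0.00076). *Ahr*, the dioxin receptor, was higher in *Rev-erbα*-/- liver at ZT20 (43.0 ± 0.732 CPM in WT and 55.4 ± 4.64 CPM in the knockout, adjusted p = 0.0382, but 0.0592 with the replicate number as a block, and lost in 8 of 19 alternatives). *Arnt*, which encodes the common partner of the *Epas1* and *Ahr* products, was not called at either time. Its interaction was called (log2 0.37, adjusted p = 0.036), but the call was lost in 12 of 18 alternatives, the replicate number as a block among them (adjusted p = 0.0555).

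The 5 calls of *Arntl* (higher in the knockout at ZT8, not called at ZT20, interaction positive, and higher at ZT20 in both genotypes) were shared by 51 of the other 14487 genes (0.352%), *Npas2*, *Cry1*, *Elovl3* and *Insig2* among them. Those of *Clock*, which lacked the rise in the knockout, were shared by 153 genes (1.06%). The contrasts share groups, and these counts are descriptions. By Pearson r of log2 CPM over the 12 livers, computed against 12681 genes, the gene closest to *Arntl* was *Nedd4l*, a ubiquitin ligase (r = 0.992), with *Chka* (0.989), *Mical2* (0.988) and *Ddc* (0.986) also among the 5 closest. Closest to *Clock* were *Nfil3* (0.988), *Arntl* (0.979) and *Ddc* (0.975), and closest to *Npas2* was *Oxnad1* (0.981). *Nedd4l* went from 30.3 ± 0.928 CPM in WT to 67.6 ± 2.27 CPM in *Rev-erbα*-/- liver at ZT8, and was at 81.4 ± 2.40 and 77.8 ± 5.05 CPM at ZT20. The most opposite gene to both *Arntl* (-0.978) and *Clock* (-0.975) was *Nrg4*, a growth factor, with 16.8 ± 1.12 CPM in WT and 5.65 ± 0.623 CPM in *Rev-erbα*-/- liver at ZT8 and 4.38 ± 0.192 and 5.09 ± 1.16 CPM at ZT20. The most opposite to *Npas2* were *Abcg5* (-0.992) and, further down the list, *Abcg8* (-0.985), which together form the sterol exporter of hepatocytes. *Abcg5* stood at 145.4 ± 9.52 CPM in WT and 85.2 ± 9.49 CPM in *Rev-erbα*-/- liver at ZT8, and at 50.1 ± 2.65 and 47.7 ± 0.922 CPM at ZT20. The r values mainly follow the 4 group means, and 152, 85 and 329 genes had an r of at least 0.9 with *Arntl*, *Clock* and *Npas2*. None of the 5 closest genes of any activator was among its 5 closest by Spearman's rho.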

How the data were processed

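Livers had been snap-frozen and RNA libraries made by standard Illumina protocols. Per the labels and the study's methods, the authors aligned reads to mm10 with TopHat, kept uniquely mapped reads and counted them per gene symbol with HTSeq in union mode (alignment quality of at least 10, no strand). The submitters' processing notes also name SAMtools and DESeq2 1.6.3. The deposited files hold raw counts for 38926 symbols per library, one library per file, and 5 summary lines, which were left out.

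Counts of all 12 libraries were fitted together in edgeR 4.0.16 (R 4.3.3) with 4 group means, TMM scaling, the filterByExpr filter and robust quasi-likelihood tests. The p-values were adjusted by Benjamini-Hochberg over 14488 genes, and a gene was called at an adjusted p under 0.05. Shares of all genes called are edgeR shares and do not apply to counts at an unadjusted p or by DESeq2. The study's own methods used DESeq2, run here in version 1.42.0 as an alternative, and the procedure was tested on simulated counts. The 3 activators, the gene lists and the markers were chosen with earlier results of these data known. Of each list, the text names genes called in either genotype comparison or in the interaction (up to 6 by size of change), and a few uncalled ones as examples chosen after their values were seen. It also names genes of highest and lowest Pearson r with each activator (mean of at least 1 CPM, log2 with a prior count of 2). *Ciart*, *Cipc* and *Adgre1* are listed under older symbols. A gene listed among both the RORE regulators and the other RORE genes, and a gene among those closest to *Arntl*, are not reported here, and the list counts were recomputed without the first after its values had been seen. Lengths and positions came from GENCODE vM21 (mm10), and promoters from RefSeq (GRCm38.p6), in which all 3 activators were found. Ratios were compared by 2-sided exact permutation tests of their log2 values. Replicates are separate mice. Deviations of same-numbered livers correlated at -0.0144 on average over all genes (-0.0832 to 0.0738 over 18 pairs), so samples were not treated as paired. A value over all genes cannot show whether a few genes share a batch by replicate number. Depth was 17641809 to 26060192 assigned reads. Alternatives were other size factors, total counts, DESeq2, no filter, a replicate block, only the groups compared, and each library left out in turn. A further alternative, chosen after the data were seen, left out the 2 WT libraries at ZT8 with high *Saa1*.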

Additional observations from a re-analysis of the deposited data

Results flagged for a closer look

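Genotype effects that differed between ZT8 and ZT20 by the edgeR interaction test (the difference of the log2 fold changes, ZT8 minus ZT20, adjusted over all genes) were found for all 3 activators, at 5.20 for *Arntl* (adjusted p = 3.93e-11), 1.365 for *Clock* (5.04e-06) and 2.90 for *Npas2* (0.00972). Each had a higher level in *Rev-erbα*-/- liver at ZT8 in 3 of 3 livers and overlapped at ZT20. Among listed genes, 4 of the other RORE genes had interactions of the same sign, namely *Nfil3* at 2.48 (adjusted p = 6.67e-10), *Cry1* at 2.24 (1.07e-06), *Elovl3* at 1.72 (0.00223) and *Insig2* at 1.68 (0.000436). *Arnt* had a small positive value of 0.37 (adjusted p = 0.036, lost in 12 of 18 alternatives). Negative values were found for *Wee1* at -1.37 (adjusted p = 0.00318), *Btrc*, a ubiquitin ligase subunit, at -0.65 (0.00238), *Ahr* at -0.56 (0.0177) and *Arntl2* at -3.69 (0.0317). For *Btrc* the genotypes differed in opposite directions, with 20.01 ± 0.691 CPM in WT and 15.9 ± 0.712 CPM in *Rev-erbα*-/- liver at ZT8 and 15.3 ± 0.324 and 19.1 ± 1.07 CPM at ZT20 (SD, n = 3). Groups of 3 livers were too small for a test of single outlying livers.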

How the results depend on the processing

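For *Arntl* and *Clock*, each called comparison kept its direction and its call in all alternatives run. For *Npas2* this held except without the 2 WT libraries high in *Saa1*, where the log2 difference at ZT8 was 2.96 (adjusted p = 0.108) and the interaction 2.85 (0.126). With only the ZT8 livers, *Npas2* failed the filter and had no value. Over the omission of single livers, log2 differences that had not been called changed sign for *Arntl* at ZT20 (-0.0435 to 0.0226), *Npas2* at ZT20 (-0.0928 to 0.266), *Clock* between times in *Rev-erbα*-/- liver (-0.121 to 0.0165) and between *Rev-erbα*-/- at ZT8 and WT at ZT20 (-0.0533 to 0.0654), and, between genotypes, for *Wee1* (-0.00448 to 0.0841), *Insig2* (-0.266 to 0.0551) and *Crebbp* (-0.0410 to 0.0156) at ZT20 and *Nr1d2* at ZT8 (-0.161 to 0.00810, and 0.0615 without the 2 libraries). With the replicate number as a block, the log2 differences at ZT8 were 5.18, 1.32 and 3.03 for *Arntl*, *Clock* and *Npas2*, and of the genes named, calls changed for *Nr1d2*, *Ahr*, *Arnt*, *Ogt* (0.0643 at ZT8) and *Arntl2* (0.0304 at ZT20). Single livers moved the number of called genes to 542 to 1811 between genotypes at ZT8, 239 to 656 at ZT20, 493 to 1260 for the interaction, 1566 to 2847 between times in *Rev-erbα*-/- liver and 1930 to 3350 between *Rev-erbα*-/- at ZT8 and WT at ZT20. Fits of the ZT8 groups alone called 769 at ZT8. Without the 2 libraries, 346 were called at ZT8, 493 for the interaction, 1795 between times in WT liver and 1467 between *Rev-erbα*-/- at ZT20 and WT at ZT8, with 1 WT liver left at ZT8. The *Npas2* to *Clock* ratio in WT and *Rev-erbα*-/- liver at ZT8 and at ZT20 was 0.00276, 0.00924, 0.0831 and 0.0915 by coding length, 0.00264, 0.00882, 0.0793 and 0.0873 without a length, and 0.201 in *Rev-erbα*-/- liver at ZT20 by the longest transcript. The length changes the level of a ratio and not its fold between groups. Over coding length, longest transcript and no length, the *Npas2* to *Arntl* ratio was 0.0211 to 0.0273 in *Rev-erbα*-/- liver at ZT8, 0.101 to 0.131 in WT and 0.110 to 0.142 in *Rev-erbα*-/- liver at ZT20, and the *Arntl* to *Clock* ratio was 0.0218 to 0.0532 and 0.328 to 0.8003 in WT and *Rev-erbα*-/- liver at ZT8 and 0.605 to 1.475 and 0.615 to 1.499 at ZT20. Other than where the construction of an alternative shows it (fewer livers), the cause was not tested. Depth limits *Npas2* at ZT8 in WT liver and *Arntl2* at ZT20 in WT liver, each at or under 3 reads per library.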

Other observations

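Among 22 cofactors, kinases, ubiquitin ligase subunits and inhibitors that bind or modify the activators, all tested, 1 was higher and 3 were lower in *Rev-erbα*-/- liver at ZT8, with a median log2 difference of -0.06, where 8.45% of all genes were called. The higher one was *Cry1*. *Btrc* stood at 20.01 ± 0.691 CPM in WT and 15.9 ± 0.712 CPM in the knockout (SD, n = 3, edgeR adjusted p = 0.0167), *Crebbp*, a histone acetyltransferase, at 29.4 ± 1.79 and 24.3 ± 2.40 CPM (adjusted p = 0.0486), and *Ogt*, the O-GlcNAc transferase, at 144.7 ± 11.3 and 120.4 ± 6.59 CPM (adjusted p = 0.0463). Of 19 alternatives, the call was lost in 5 for *Btrc*, 14 for *Crebbp* and 12 for *Ogt*. Over the alternatives, the omission of the 2 WT libraries high in *Saa1* among them, 1 to 6 of 22 were called. The number of all genes called varied over the alternatives as well, as given above. At ZT20, 1 of 22 was called, against 3.63% of all genes. It was *Btrc*, which was then higher in *Rev-erbα*-/- liver (edgeR adjusted p = 0.0333), a call lost in 8 of 19 alternatives. From ZT8 to ZT20, 1 rose and 7 fell in WT liver, where 27.7% of all genes were called. Over the alternatives 2 to 9 were called, and the 27.7% does not apply to these. In *Rev-erbα*-/- liver, 3 rose and 2 fell (17.5% of all genes called). The list overlaps that of the E-box targets in 4 *Per* and *Cry* genes.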
